A study of Mus musculus with 6 samples.

Results

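The phase II conjugation enzymes examined here are the UDP-glucuronosyltransferases, the sulfotransferases and the cytosolic glutathione S-transferases other than the mu class. They were taken from the count table by gene symbol: the families Ugt1a, Ugt2a, Ugt3a, Ugt2b and Sult1 to Sult6, and the glutathione S-transferase classes alpha, kappa, omega, pi, theta and zeta, without pseudogenes. This gave 46 of the 20914 listed genes: 8 in UGT1, 8 in UGT2, 2 in UGT3, 13 sulfotransferases (SULT), 5 in GSTA, 3 in GSTP, 3 in GSTT, 2 in GSTO and 1 each in GSTK and GSTZ. The data are RNA sequencing of whole mouse liver in 6 libraries, 3 labelled DOX and 3 labelled PBS. Both groups carry the genotype label BucheKI/KI-Hep, the element Alb-Cre in the sample name, which places Cre under the albumin promoter of hepatocytes, the elements CKI and S10D and a label of BDL treatment. The groups are therefore DOX, BDL-treated knock-in livers, against PBS, BDL-treated knock-in livers. The labels do not spell out DOX, CKI, S10D or BDL and give no age, and neither a group without BDL nor one without the knock-in was analysed here. The design text concerns overexpression of butyrylcholinesterase in hepatocytes. Its gene, Bche, stood at 969.2, 447.5 and 595.0 CPM in DOX replicates 1, 2 and 3, and at 192.8, 244.9 and 194.2 CPM in PBS (log2 fold change 1.67, SE 0.27, edgeR adjusted p = 0.106). DESeq2 called Bche (adjusted p = 2.90e-08), as did edgeR on the unfiltered table (adjusted p = 0.0057), and the alternatives reached up to 0.406. CPM here are counts relative to library size after TMM scaling, which corrects for the few very abundant genes. Whether each library is a different animal is not stated in the labels, and the p-values therefore rest on a spread among libraries that may be technical.

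Conjugation is the step at which the liver joins a polar group to a lipophilic molecule so that it can leave in bile or urine. Glucuronosyltransferases add glucuronic acid from UDP-glucuronate, sulfotransferases add sulfate from the donor PAPS, and glutathione S-transferases add glutathione to electrophiles. Bilirubin, bile acids, steroid and thyroid hormones and lipid peroxidation products are among the natural substrates, and bile carries many of the products out of the hepatocyte.

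Of the 46 genes, 37 passed the filter on low counts and were tested. The other 9 were Ugt1a10, Ugt1a2, Sult2a1, Sult2a2, Sult2a3, Sult2a7, Sult4a1, Sult5a1 and Gsto2, none of which exceeded 18 counts or 0.486 CPM in a library. Total counts per library were 32826493 to 41102844. The 46 genes together took 0.523%, 0.699% and 0.753% of all counts in DOX replicates 1, 2 and 3, and 0.580%, 0.662% and 0.625% in PBS replicates 1, 2 and 3. The DOX values spanned those of PBS on both sides. In bulk tissue, a lower level from fewer cells of a type and from less RNA per cell cannot be told apart.

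None of the 37 tested genes passed the threshold of 0.05 on the adjusted p in either direction (edgeR quasi-likelihood test, Benjamini-Hochberg adjustment over 13725 genes), where 0.0291% of all tested genes did so in either direction, 0.0219% higher and 0.00729% lower. At an unadjusted p under 0.05, 6 genes were higher in DOX (Ugt1a1, Ugt1a5, Ugt1a6a, Sult2a8, Gsta3 and Gstt1) and 0 lower. That is 16.2% of the 37, against 5.03% of all tested genes higher and 4.87% lower. DESeq2 called 1 of them, Ugt1a5, higher, and called 0.863% of all genes it tested higher and 0.324% lower. In 6 of the 37 (16.2%) every DOX library lay above every PBS library, namely Ugt1a1, Ugt1a5, Ugt1a6a, Gsta3, Gsta5 and Gstt1, and in 0 did every DOX library lie below. Over all tested genes these shares were 7.84% higher and 9.02% lower. Ugt1a1, Ugt1a5 and Ugt1a6a, which stand in both lists of 6, belong to 1 locus with shared exons. Their counts may therefore not be independent of each other. With scaling by library size only, the count was 3 higher (Ugt1a1, Ugt1a5 and Ugt1a6a) and 1 lower (Sult1a1). It was the same in the deposited FPKM (read counts scaled by gene length and library total). The shares over all tested genes were not computed for these scalings.

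The fitted log2 fold change of DOX over PBS was positive in 26 of the 37 genes (70.3%), against 47.0% of all tested genes. The median was 0.10 over the 37 and −0.02 over all tested genes. With scaling by library size only these medians were −0.03 and −0.15, so the sign of the median over the 37 depends on the scaling. The most positive value was 1.66, of Sult2a8, and the most negative −0.95, of Sult2b1, both genes of low level.

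**Figure D1:**
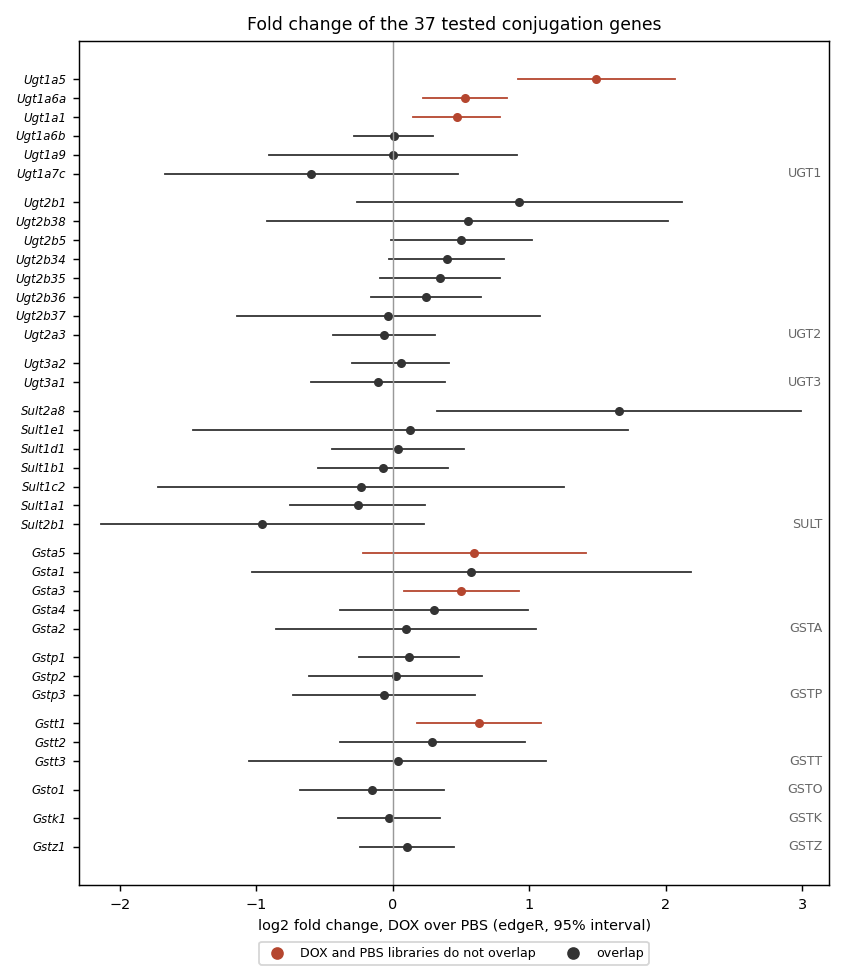
Fitted log2 fold change of DOX over PBS (horizontal axis, edgeR) with its 95% interval for each of the 37 tested conjugation genes, grouped by enzyme class. Red points are the 6 genes whose DOX and PBS libraries do not overlap, all of them on the positive side (3 of them, Gsta3, Gsta5 and Gstt1, overlap with scaling by library size only), and Ugt1a5 stands at 1.49.

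The UGT1 class is a single locus on chromosome 1, in which each gene has its own first exon and all share the same downstream exons. Its tested member with the smallest p was Ugt1a5 (chr1:88166012-88218997, plus strand, GRCm38), which stood at 58.0, 36.5 and 65.9 CPM in DOX and at 23.3, 13.6 and 20.04 CPM in PBS. The lowest DOX library was above the highest PBS library. On average DOX was 2.82-fold higher (95% interval 1.89-fold to 4.19-fold), or 1.49 on the log2 scale with an SE of 0.25, which missed the threshold over all genes with edgeR (adjusted p = 0.117). DESeq2 called it (adjusted p = 2.93e-06), as did edgeR on the unfiltered table (adjusted p = 0.0062), and the alternatives ranged from 2.93e-06 to 0.392. Leaving out any single library kept the log2 fold change between 1.30 and 1.72.

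Ugt1a1, the glucuronosyltransferase of bilirubin (chr1:88211959-88218997), was the most abundant of the class and made up 64.4% of its summed FPKM. It stood at 275.1, 308.1 and 380.6 CPM in DOX and at 219.1, 238.5 and 239.1 CPM in PBS, again without overlap (log2 fold change 0.47, SE 0.14, edgeR adjusted p = 0.382). Ugt1a6a, a glucuronosyltransferase of planar phenols (chr1:88134809-88218997), stood at 51.8, 36.0 and 48.3 CPM in DOX and at 33.1, 30.2 and 30.9 CPM in PBS (log2 fold change 0.53, SE 0.14, edgeR adjusted p = 0.321). All 3 DOX libraries were above the PBS libraries for both genes, also with scaling by library size only and in FPKM. Ugt1a6b, the neighbouring paralog of Ugt1a6a, stood at 44.5, 52.1 and 62.0 CPM in DOX and at 56.3, 51.0 and 50.4 CPM in PBS, with the highest and the lowest library both in DOX (log2 fold change 0.01, SE 0.13). Ugt1a9 stood at 2.01 to 5.16 CPM in DOX and 2.51 to 5.62 CPM in PBS, and Ugt1a7c at 0.374 to 1.06 CPM in DOX and 0.642 to 1.22 CPM in PBS (log2 fold change −0.60, SE 0.47).

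**Figure D2:**
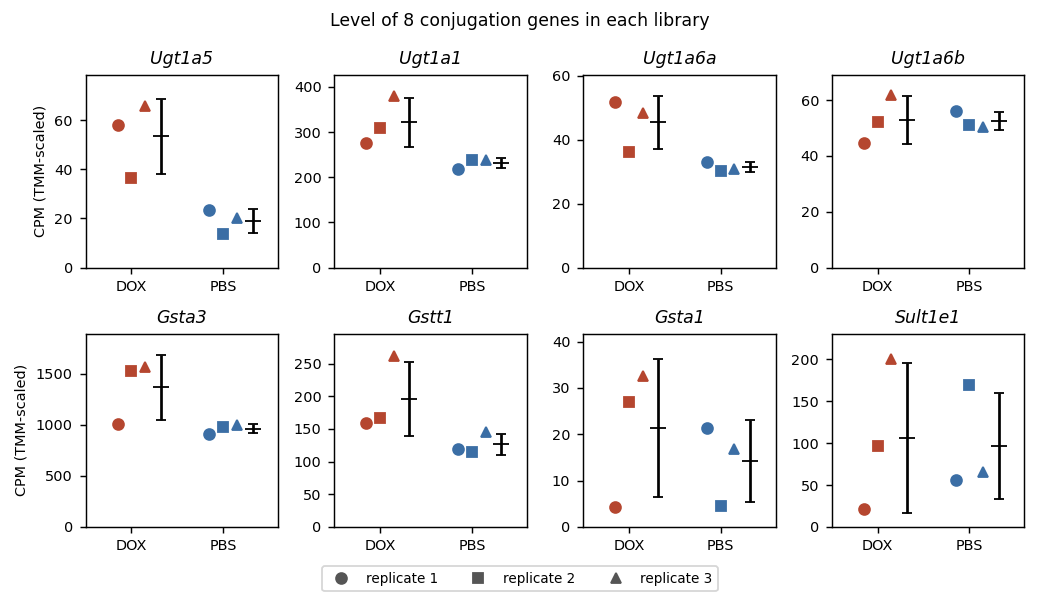
Level in CPM (vertical axes, from 0) of 8 conjugation genes in each of the 3 DOX and 3 PBS libraries, with marker shapes for the replicate number and the mean ± SD to the right of each group. Ugt1a5, Ugt1a1, Ugt1a6a, Gsta3 and Gstt1 have every DOX library above every PBS library (Gsta3 and Gstt1 not with scaling by library size only), while Gsta1 and Sult1e1 spread widely within both groups.

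Because the genes of the locus share exons, how counts are divided among them depends on the counting, whose tool and settings the sources used here do not name. In the reference transcripts, 64.0% of the 50-base words of Ugt1a5, 58.2% of those of Ugt1a1, 96.0% of those of Ugt1a6a and 79.8% of those of Ugt1a6b also occur in another gene. In the deposited division, the shares of 2 genes did not overlap between the groups. Ugt1a5 held 13.4%, 8.36% and 11.7% of the counts on Ugt1a genes in DOX and 6.92%, 4.02% and 5.78% in PBS, a mean of 11.1% ± 2.54 in DOX and 5.57% ± 1.46 in PBS (SD, n = 3 each). Ugt1a6b held 10.3%, 11.9% and 11.0% in DOX and 16.7%, 15.1% and 14.5% in PBS (mean 11.1% ± 0.845 in DOX and 15.5% ± 1.14 in PBS). These shares do not depend on the scaling of the libraries. A share also moves with the other genes of the locus, and the level of Ugt1a6b itself overlapped between the groups (log2 fold change 0.01). With 3 against 3 libraries the exact two-sided permutation p of either share was 0.1, the smallest possible, so the design cannot pass the threshold. The shares of Ugt1a1 (67.2% ± 3.69 in DOX and 68.3% ± 2.86 in PBS) and of Ugt1a6a (9.59% ± 2.03 in DOX and 9.25% ± 0.521 in PBS) overlapped. Shared exons make the shares uncertain, and how far the counting set them was not tested.

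**Figure D3:**
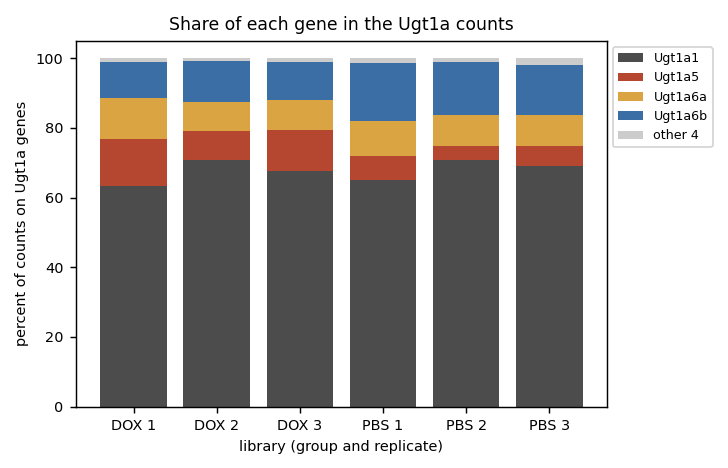
Share of the counts on the 8 Ugt1a genes (vertical axis, percent) that each gene holds in each library, DOX libraries on the left and PBS libraries on the right. The red segment of Ugt1a5 spans 8.36% to 13.4% in DOX and 4.02% to 6.92% in PBS, and the blue segment of Ugt1a6b is shorter in every DOX library.

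Each first exon of the locus has its own promoter, and RefSeq windows from 250 bases before to 50 bases after a start site (GRCm38.p6) are shown for the 3 Ugt1a genes without overlap. They are Ugt1a5 (chr1:88165762-88166061), Ugt1a1 (chr1:88211709-88212008) and Ugt1a6a (chr1:88134559-88134858), all on the plus strand and 5′ to 3′. Capitals mark matches to the searched motifs, and the window of Ugt1a6a held none.
Ugt1a5: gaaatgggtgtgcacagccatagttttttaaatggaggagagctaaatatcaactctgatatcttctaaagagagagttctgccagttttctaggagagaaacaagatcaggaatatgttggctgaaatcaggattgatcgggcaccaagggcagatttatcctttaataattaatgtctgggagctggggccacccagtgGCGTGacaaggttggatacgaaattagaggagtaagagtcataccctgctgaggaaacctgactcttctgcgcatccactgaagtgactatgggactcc
Ugt1a1: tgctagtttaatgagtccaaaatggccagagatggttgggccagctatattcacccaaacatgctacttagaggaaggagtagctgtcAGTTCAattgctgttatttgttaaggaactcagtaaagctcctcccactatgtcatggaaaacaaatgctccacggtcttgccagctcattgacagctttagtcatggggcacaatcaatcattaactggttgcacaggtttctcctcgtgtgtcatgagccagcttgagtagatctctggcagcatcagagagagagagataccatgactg
Ugt1a6a: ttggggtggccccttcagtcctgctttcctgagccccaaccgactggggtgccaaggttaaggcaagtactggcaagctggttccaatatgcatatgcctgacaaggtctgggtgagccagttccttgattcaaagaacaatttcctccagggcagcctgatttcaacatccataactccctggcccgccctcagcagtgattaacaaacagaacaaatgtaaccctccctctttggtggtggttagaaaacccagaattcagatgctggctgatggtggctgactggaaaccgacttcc

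The letters searched on both strands were GCGTG (the core bound by the aryl hydrocarbon receptor), AGTTCA (an element of PXR and CAR sites), TGACNNNGC (the antioxidant response element core bound by NRF2) and CAAAGTCCA (an HNF4 core), with the palindromic HNF1 motif beside them. In these windows, GCGTG lay 49 bases before the start of Ugt1a5 and AGTTCA 162 bases before that of Ugt1a1. Of the 46 genes, 37 had 43 windows in the table. The background was the 20015 windows of the 15740 listed genes that had any. GCGTG stood in 20.9% of the members' windows and 42.1% of all windows, and TGACNNNGC in 2.33% of the members' windows, which was Gsta3 alone, and 13.6% of all. AGTTCA stood in 16.3% of the members' windows and 11.8% of all, and CAAAGTCCA in 2.33%, which was Sult1b1 alone, and 0.560%. The HNF1 motif matched no member's window and only 1 of the 20015 windows (0.0050%), so it cannot set the members apart from other genes. A match describes the letters and is not a binding site.

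The UGT2 class, the main glucuronosyltransferases of steroids and many drugs, had 8 tested members with 0 called and 6 positive log2 fold changes (median 0.37, and 0.23 with scaling by library size only). The median was 0.57 without DOX replicate 1 and 0.19 without DOX replicate 3. Ugt2b5, the most abundant of them per length (30.8% of the class), stood at 315.2, 525.6 and 610.1 CPM in DOX and at 309.8, 340.5 and 373.3 CPM in PBS (log2 fold change 0.50, SE 0.23, edgeR adjusted p = 0.505). Ugt2b34 stood at 352.6, 520.7 and 594.1 CPM in DOX and at 389.1, 361.8 and 365.1 CPM in PBS (log2 fold change 0.39, SE 0.19, edgeR adjusted p = 0.520). In both genes DOX replicates 2 and 3 were above all PBS libraries while DOX replicate 1 was within or below their range. Ugt2b35, at 140.9, 227.2 and 238.1 CPM in DOX and 145.3, 171.8 and 160.3 CPM in PBS, had the same layout. So had Ugt2b36, at 309.3, 390.1 and 483.9 CPM in DOX and 310.4, 308.2 and 381.2 CPM in PBS. Of the 50-base words of Ugt2b5, 41.7% occur in another gene, against 1.44% for Ugt2b34, 0.303% for Ugt2b35 and 0.310% for Ugt2b36, so Ugt2b5 is the least certain of them. Without DOX replicate 1, every remaining DOX library of all 4 lay above every PBS library.

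Ugt2b1 had another layout, with 44.7, 15.1 and 49.7 CPM in DOX and 23.7, 7.23 and 26.5 CPM in PBS. Replicate 2 was lowest in both groups, and the groups overlapped (log2 fold change 0.93, SE 0.52, edgeR adjusted p = 0.580). Ugt2b1 was named after its values were seen, since it was called only when the replicate number entered as a block (edgeR adjusted p = 0.0232). Ugt2a3 stood at 160.1 to 216.7 CPM in DOX and 162.0 to 226.3 CPM in PBS (log2 fold change −0.07). Ugt2b37 and Ugt2b38 were under 8 CPM in every library, and the values of Ugt2b38 ranged from 1.31 to 7.34 CPM in DOX and from 1.57 to 5.79 CPM in PBS. The UGT3 enzymes, which in humans use sugar donors other than UDP-glucuronate, had log2 fold changes close to 0. Ugt3a2 stood at 166.7, 157.4 and 213.7 CPM in DOX and at 145.0, 193.5 and 177.6 CPM in PBS (log2 fold change 0.06, 95% interval −0.29 to 0.41). Ugt3a1 stood at 5.28 to 6.76 CPM in DOX and 4.57 to 7.35 CPM in PBS (log2 fold change −0.11, 95% interval −0.60 to 0.38). These 2 log2 fold changes were −0.08 and −0.23 with scaling by library size only.

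Of the 13 sulfotransferase genes, 7 were tested, 0 were called and 3 had a positive log2 fold change (median −0.07, and −0.32 to 0.14 when single libraries were left out, lowest without DOX replicate 3 and highest without DOX replicate 2). Sult1a1, the phenol sulfotransferase, had the highest level of the class per length and stood at 828.8, 750.7 and 899.8 CPM in DOX and at 776.8, 1351 and 834.4 CPM in PBS. A single library, PBS replicate 2, stood apart, and the log2 fold change was −0.26 (SE 0.22, edgeR adjusted p = 0.722). In FPKM every DOX library of Sult1a1 was below every PBS library, at 185 ± 6.95 FPKM in DOX and 241 ± 68.1 FPKM in PBS. Sult1d1, which sulfates catecholamines in mice, stood at 272.6, 251.2 and 403.0 CPM in DOX and at 251.7, 368.7 and 280.6 CPM in PBS (log2 fold change 0.04, 95% interval −0.44 to 0.52).

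Sult1e1, the estrogen sulfotransferase, varied widely within both groups. It stood at 21.5, 96.6 and 200.4 CPM in DOX and at 55.9, 170.0 and 65.4 CPM in PBS. Its interval ran from −1.47 to 1.73 on the log2 scale around 0.13, so that neither a 2-fold increase nor a 2-fold decrease lies outside it. Sult2a8, a bile acid sulfotransferase of mouse liver, stood at 1.82, 0.886 and 3.27 CPM in DOX and at 0.693, 0.242 and 0.936 CPM in PBS. Replicate 2 was again lowest in both groups, and DOX replicate 2 lay below PBS replicate 3 (log2 fold change 1.66, SE 0.58, edgeR adjusted p = 0.435). Sult2b1, the cholesterol sulfotransferase, stood at 0.3203, 0.945 and 0.378 CPM in DOX and at 0.762, 1.57 and 0.856 CPM in PBS (log2 fold change −0.95, SE 0.52). The 95% interval ran from 0.32 to 2.99 for Sult2a8 and from −2.14 to 0.23 for Sult2b1. Sult1b1, which sulfates thyroid hormone, was at 12.3 to 20.7 CPM in DOX and 14.0 to 17.9 CPM in PBS, and Sult1c2 was under 0.72 CPM in every library. The 4 further Sult2a genes, Sult2a1, Sult2a2, Sult2a3 and Sult2a7, held at most 10 counts in any library.

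Gsta3, the alpha class transferase that protects mice from aflatoxin epoxide, was the most abundant of all 46 genes per length, at 799 ± 183 FPKM in DOX and 618 ± 32.96 FPKM in PBS (SD, n = 3 each). It made up 20.7% of the FPKM of the whole set. It stood at 1003, 1524 and 1568 CPM in DOX and at 908.9, 976.7 and 1001 CPM in PBS. DOX replicates 2 and 3 were well above PBS, whereas DOX replicate 1 was barely above PBS replicate 3. The log2 fold change was 0.50 (SE 0.19, edgeR adjusted p = 0.457), and the groups overlapped with scaling by library size only and in FPKM. None of its 50-base words occurs in another gene. The promoter window of Gsta3 (RefSeq, GRCm38.p6, chr1:21240335-21240634, plus strand, 5′ to 3′) is shown because it was the only window of the set with a match to TGACNNNGC, in capitals.
Gsta3: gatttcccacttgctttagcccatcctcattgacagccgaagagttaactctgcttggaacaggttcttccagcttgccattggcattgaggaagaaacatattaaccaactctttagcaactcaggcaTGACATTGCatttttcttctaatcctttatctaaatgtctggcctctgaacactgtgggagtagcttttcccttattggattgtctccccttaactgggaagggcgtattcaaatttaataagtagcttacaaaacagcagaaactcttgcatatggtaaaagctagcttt

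Gsta1, Gsta2 and Gsta4 spread widely among the DOX libraries. Gsta2 stood at 53.8, 177.7 and 225.8 CPM in DOX and at 132.2, 150.6 and 144.8 CPM in PBS. DOX thus held the lowest value and the highest values (log2 fold change 0.10, 95% interval −0.86 to 1.05, −0.05 with scaling by library size only). Gsta1 stood at 4.35, 27.1 and 32.6 CPM in DOX and at 21.4, 4.45 and 16.9 CPM in PBS (log2 fold change 0.58, SE 0.70), and 89.7% of its 50-base words are shared with another gene. Gsta4, which conjugates the lipid peroxidation product hydroxynonenal, stood at 65.9, 111.6 and 139.7 CPM in DOX and at 96.1, 55.3 and 105.0 CPM in PBS (log2 fold change 0.31, SE 0.30). In all 3, DOX replicate 3 was the highest of the 6 libraries, and without DOX replicate 1 the DOX libraries of each lay above all PBS libraries. Gsta5, which is not in the reference annotation, stood at 0.961 to 1.30 CPM in DOX and 0.508 to 0.923 CPM in PBS, without overlap and at under 1 CPM on average. All 5 tested alpha class genes had a positive log2 fold change (median 0.50), which with scaling by library size only held for the median (0.37) but not for Gsta2. The median was 0.13 without DOX replicate 3 and 0.16 without PBS replicate 2.

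Gstp1, the major pi class transferase, stood at 346.9, 434.2 and 509.9 CPM in DOX and at 442.5, 377.9 and 369.4 CPM in PBS, so the groups overlapped (log2 fold change 0.12, SE 0.16, edgeR adjusted p = 0.832). Its 50-base words are shared to 51.0%, all with Gstp2, which was under 5 CPM in every library. Gstp3 stood at 6.94 to 15.4 CPM in DOX and 8.81 to 14.7 CPM in PBS. The median of the 3 pi class genes was 0.02, with a negative sign (−0.10) under scaling by library size only.

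Gstt1, the theta class enzyme that acts on small halogenated compounds (chr10:75783813-75798584, minus strand), stood at 158.4, 167.0 and 261.1 CPM in DOX and at 119.3, 114.5 and 144.7 CPM in PBS. All DOX libraries were above all PBS libraries, DOX replicate 3 by far the most (log2 fold change 0.63, SE 0.20, edgeR adjusted p = 0.400). With library size only and in FPKM the groups overlapped, and no 50-base word of Gstt1 occurs in another gene. Gstt2 stood at 37.3, 53.4 and 89.8 CPM in DOX and at 37.6, 57.7 and 52.4 CPM in PBS. Gstt3 stood at 30.0, 54.9 and 111.7 CPM in DOX and at 39.2, 100.2 and 52.7 CPM in PBS. In both, DOX held the highest and the lowest of the 6 values (log2 fold changes 0.29, SE 0.30, and 0.04, SE 0.48).

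In the classes with a single tested gene, the groups overlapped. Gsto1, a thioltransferase and dehydroascorbate reductase, stood at 45.2, 52.6 and 89.8 CPM in DOX and at 64.2, 74.7 and 69.4 CPM in PBS (log2 fold change −0.15, 95% interval −0.68 to 0.38). Gstk1, of mitochondria and peroxisomes, stood at 92.7, 129.7 and 134.7 CPM in DOX and at 111.9, 141.0 and 111.0 CPM in PBS (log2 fold change −0.03, 95% interval −0.40 to 0.35). Gstz1, the maleylacetoacetate isomerase of tyrosine breakdown, stood at 512.3, 611.1 and 664.0 CPM in DOX and at 504.0, 639.5 and 521.7 CPM in PBS (log2 fold change 0.10, 95% interval −0.24 to 0.45, −0.03 with scaling by library size only). An adjusted p above the threshold does not show that these levels are equal.

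Summed per length, UGT1 was the one class whose groups did not overlap. Its FPKM sum was 134.4, 142.0 and 164.1 in DOX and 118.6, 111.4 and 121.3 in PBS (mean 146.8 ± 15.4 in DOX and 117.1 ± 5.14 in PBS, SD, n = 3 each, a ratio of 1.25). Ugt1a1, already without overlap by itself, made up 64.4% of this sum. The log2 ratio of the sums was 0.33, and 0.32 without Ugt1a1. With 3 against 3 libraries an exact permutation p cannot go below 0.1, and 1 separation among several classes was not tested. The GSTA sum was 714.2, 1264 and 1234 FPKM in DOX and 869.0, 816.7 and 946.8 FPKM in PBS. The UGT2 sum was 554.8, 822.6 and 867.7 FPKM in DOX and 622.4, 620.6 and 719.3 FPKM in PBS. In both of these classes DOX replicate 1 was below all PBS libraries and the other DOX libraries above them. The SULT sum was 318.5, 364.6 and 493.6 FPKM in DOX and 361.6, 617.6 and 396.3 FPKM in PBS, with PBS replicate 2 highest. The GSTT sum was 175.5, 213.9 and 315.8 FPKM in DOX and 162.0, 192.5 and 203.7 FPKM in PBS. The GSTP sum was 464.0, 601.7 and 626.9 FPKM in DOX and 653.6, 524.4 and 544.2 FPKM in PBS, with PBS replicate 1 highest.

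**Figure D4:**
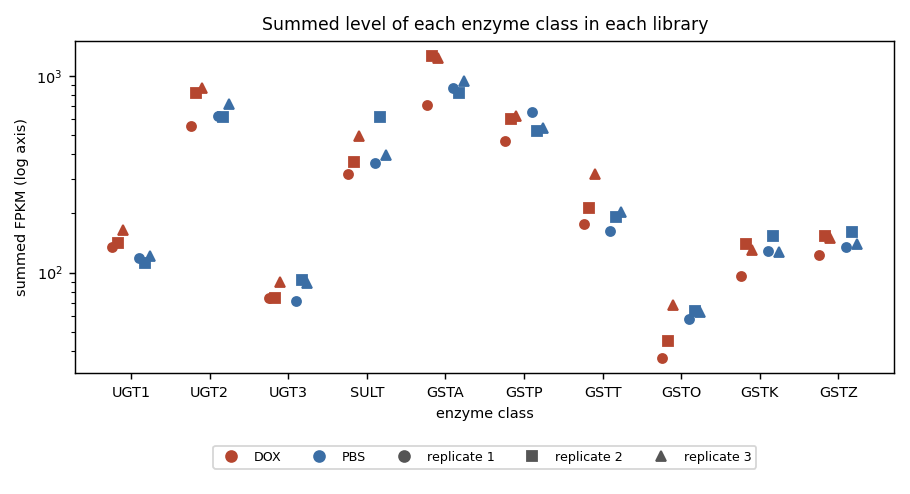
Sum of the deposited FPKM over the members of each enzyme class (vertical log axis) in each library, DOX left of PBS, with shapes for the replicate number. GSTA and UGT2 have DOX replicate 1 below and DOX replicates 2 and 3 above the PBS libraries. GSTP, also with a large sum, has DOX replicate 1 below the PBS libraries but DOX replicates 2 and 3 below PBS replicate 1. UGT1 alone has no overlap.

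Many conjugation genes deviated in the same direction within a DOX library. DOX replicate 3 held the highest of the 6 values for 25 of the 37 tested genes (67.6%), against 21.2% of all tested genes. DOX replicate 1 held the lowest value for 16 (43.2%), against 16.5% of all tested genes. With scaling by library size only, DOX replicate 3 was highest for 17 (45.9%, against 8.16% of all tested genes) and DOX replicate 1 lowest for 21 (56.8%, against 20.6%). The median deviation from the gene mean, in log2 CPM over the 37, was −0.23, 0.11 and 0.43 in DOX replicates 1, 2 and 3 and −0.12, −0.05 and −0.10 in PBS replicates 1, 2 and 3. The median SD within groups was 0.330 log2 CPM over the 37 genes and 0.182 over all tested genes. Without DOX replicate 1, 13 of the 37 genes (35.1%) had every DOX library above every PBS library, against 13.3% of all tested genes. Those added were Ugt2b34, Ugt2b35, Ugt2b36, Ugt2b5, Gsta1, Gsta2 and Gsta4. DOX replicate 1 was the library most often lowest for the 37, so this rise follows in part from the ranking above. It is not separate support. Without DOX replicate 3 the higher count was 6 (16.2%), against 12.2% of all tested genes, and 2 genes, Sult1b1 and Gsto1, lay below, against 12.7%.

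**Figure D5:**
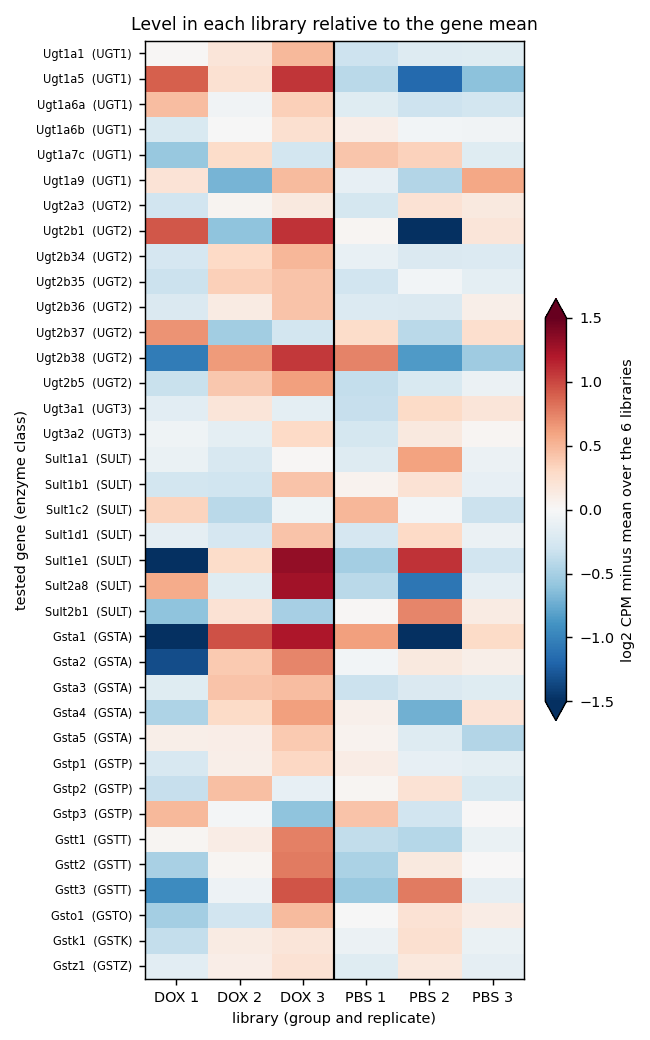
Log2 CPM of each of the 37 tested genes (rows, with enzyme class) in each library minus the mean of the gene over the 6 libraries, DOX libraries left of the line and PBS libraries right of it, with colours clipped at −1.5 and 1.5. The column of DOX replicate 3 is mostly red and holds the highest value of 25 genes, and the column of DOX replicate 1 is mostly blue and holds the lowest value of 16.

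Cell type markers were examined in the same libraries. The hepatocyte list had 11 of 12 genes in the table, none at 0, with Alb at 105048, 60634 and 113495 CPM in DOX and 45625, 57734 and 52323 CPM in PBS. The summed hepatocyte markers, mostly Alb, were 95933 to 151223 CPM in DOX and 79469 to 94248 CPM in PBS, whereas their median deviation was −0.02, −0.01 and 0.14 log2 CPM in DOX and −0.09, 0.08 and −0.08 in PBS. The label of liver thus matched its markers. All 12 cholangiocyte markers were tested, none at 0, 0 called and 0 positive (median −0.66), and their sum was 283.7, 258.2 and 148.3 CPM in DOX and 325.2, 444.5 and 297.2 CPM in PBS. DOX replicate 3, highest for most tested conjugation genes, had the lowest sum for these markers, as it had for the macrophage markers below. Of 12 endothelial markers, none at 0 and 0 called, 11 were positive (median 0.74), with a sum of 274.9, 156.2 and 250.3 CPM in DOX and 187.4, 93.5 and 182.7 CPM in PBS. Replicate 2 was the lowest of its group here. Among the tested conjugation genes, replicate 2 was lowest in both groups for Ugt1a5, Ugt1a6a, Ugt1a9, Ugt2b1, Ugt2b37 and Sult2a8. It was highest in both groups for Ugt3a1, Sult2b1 and Gstp2. The 12 stellate and fibroblast markers were all positive (median 0.27). Their sum was 515.7, 423.8 and 241.3 CPM in DOX and 348.5, 212.8 and 452.3 CPM in PBS, with DOX replicate 3 the lowest of the DOX libraries. The 12 macrophage markers had a median of 0.00 (sum 1710, 1573 and 1237 CPM in DOX and 1521, 1496 and 1493 CPM in PBS). All 7 tested neutrophil markers were negative (median −0.24). Their sum was 21.6, 13.9 and 18.0 CPM in DOX and 30.5, 15.1 and 26.2 CPM in PBS, with replicate 2 lowest in each group. None of these was at 0 or called by edgeR. DESeq2 called Alb higher (adjusted p = 0.0181) and Tspan8, a cholangiocyte marker, lower (adjusted p = 0.00991). The part of any of these cell types in the conjugation results was not tested.

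The supply of conjugation donors was read from 15 genes, of which 14 were tested, 0 called and 12 positive (median 0.15). Papss1, which makes PAPS, stood at 19.9, 18.4 and 15.8 CPM in DOX and 14.2, 14.9 and 14.7 CPM in PBS (log2 fold change 0.30, SE 0.11, edgeR adjusted p = 0.457), without overlap. Cth, which makes cysteine for glutathione, stood at 466.1, 922.5 and 966.0 CPM in DOX and at 999.8, 1286 and 1705 CPM in PBS, without overlap (log2 fold change −0.76, SE 0.30, edgeR adjusted p = 0.475). Cth was lower in DOX in every library pair, while DOX replicate 1 was again the lowest of the DOX libraries.

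Of 21 other conjugation enzymes, 19 were tested, 0 were called and 13 were positive (median 0.09). Nnmt, the nicotinamide methyltransferase, stood at 103.2, 154.1 and 124.0 CPM in DOX and at 252.9, 325.6 and 239.9 CPM in PBS, without overlap (log2 fold change −1.10, SE 0.18, edgeR adjusted p = 0.106, DESeq2 adjusted p = 4.73e-06). DESeq2 thus called Nnmt, which edgeR did not. Of this list DESeq2 called 1 gene higher and 1, Nnmt, lower.

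The 20 regulators of conjugation genes, all tested, had 0 called and 10 positive (median 0.01). Nr1i2, which encodes the xenobiotic receptor PXR, stood at 77.0, 70.1 and 85.6 CPM in DOX and at 61.8, 61.2 and 62.7 CPM in PBS, without overlap (log2 fold change 0.33, SE 0.10, edgeR adjusted p = 0.386). Onecut1, a transcription factor of hepatocytes and bile ducts, stood at 5.82, 6.38 and 3.67 CPM in DOX and at 12.7, 11.0 and 10.5 CPM in PBS (log2 fold change −1.11, SE 0.21, edgeR adjusted p = 0.183, DESeq2 adjusted p = 0.000375). Onecut1 was the only regulator DESeq2 called.

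Downstream of conjugation, the 10 efflux transporters, all tested, had 0 called and 7 positive (median 0.17). Abcg2, an exporter of sulfated and glucuronidated compounds, stood at 63.0, 74.8 and 73.7 CPM in DOX and at 56.3, 61.1 and 60.9 CPM in PBS (log2 fold change 0.25, SE 0.10, edgeR adjusted p = 0.480). Abcb11, the bile salt export pump, stood at 429.3, 425.8 and 524.4 CPM in DOX and at 328.5, 229.3 and 408.6 CPM in PBS (log2 fold change 0.51, SE 0.21, edgeR adjusted p = 0.484). Every DOX library was above every PBS library for both, but not with scaling by library size only, as was so for Papss1. Of 12 genes of deconjugation and mercapturate formation, 11 were tested, 0 called and 6 positive (median 0.01). Of the lysosomal sulfatases, Arsb stood at 33.9 to 38.5 CPM in DOX and 22.2 to 32.3 CPM in PBS (log2 fold change 0.36, SE 0.14). Arsa stood at 19.7 to 25.2 CPM in DOX and 24.3 to 28.1 CPM in PBS (log2 fold change −0.29, SE 0.12). With library size only, the groups of Arsb overlapped, while every DOX library of Arsa lay below every PBS library. Neither separation thus held under both scalings.

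Several conjugation genes differ between the sexes in mouse liver, so lists of sex-predominant liver genes were read as well. Of 10 tested female-predominant genes 6 were positive (median 0.27), with Nipal1, a magnesium transporter homologue, at 0.57 (SE 0.12, edgeR adjusted p = 0.216) and Abcd2, a peroxisomal transporter, at 0.33 (SE 0.10, edgeR adjusted p = 0.399). Of 13 tested male-predominant genes 6 were positive (median −0.21), with Cyp2d9, a steroid hydroxylase, at −0.65 (SE 0.21, edgeR adjusted p = 0.418) and Elovl3, a fatty acid elongase, at 2.16 (SE 0.74, edgeR adjusted p = 0.429) and a level under 1.4 CPM in every library. No gene of either list was called by edgeR. DESeq2 called Nipal1 higher (adjusted p = 0.0104) and Cyp2b9, which edgeR did not test, lower (adjusted p = 0.0193). Cyp2b9 stood at 0.0267, 0 and 0.0810 CPM in DOX and at 0.208, 3.06 and 0.107 CPM in PBS, so that 1 PBS library carried most of its counts.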

How the data were processed

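Liver RNA of 6 libraries was analysed, 3 DOX and 3 PBS as the labels group them. The authors deposited whole-number read counts per gene and, for these libraries, FPKM. As a check, dividing counts by 1 gene length and the library's total returned the deposited FPKM in 18913 of 18913 genes (relative tolerance 1e-05). The submitters' processing notes name GRCm38 and mm10. Aligner, counter and strand use: not given in the sources used here. Counts were fitted with edgeR 4.0.16 in R 4.3.3 (filterByExpr, TMM, quasi-likelihood test, legacy = TRUE, no block), with Benjamini-Hochberg adjustment over 13725 genes and a threshold of 0.05. CPM are TMM-scaled, and SE were taken from the F statistic. Exact permutation tests over 3 against 3 libraries cannot go below 0.1. Pairs of replicates exceeded sampling noise, with 44.8 to 141.9 as chi-square divided by its degrees of freedom. A count of 3 corresponds to 0.0692 to 0.0908 CPM, and such limits cover counting error only.

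Per class, the 3 genes of smallest p and the 3 of highest FPKM were described in full, with every gene of at least 1 CPM whose groups did not overlap, and the 2 genes of smallest p of each accompanying list. The values of 1 gene that this rule selects are not reported here. Gsta1, Ugt2b1, Alb, Tspan8 and Cyp2b9 were added after their values were seen, and so was the ranking of libraries by library size only. Members and lists were chosen with earlier results of these data known. Shared 50-base words, counted in the GENCODE vM21 transcripts, took the place of a planned protein comparison, which was not run. Promoter windows are from RefSeq (GRCm38.p6). The procedure was tested on simulated counts. Alternatives were RLE or library-size scaling, other filters, DESeq2 1.42.0, limma 3.58.1 (voom, and log2 of FPKM plus 1 or 0.1), legacy = FALSE, the replicate number as a block, and leaving out each library. Lists of kidney markers (0 in the table) and intestine markers (3 tested, 0 called) were also read.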

Additional observations from a re-analysis of the deposited data

How the results depend on the processing

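The 3 libraries a group, their spread and the reads shared among Ugt1a, Gsta and Gstp genes limit these results. The count of conjugation genes called higher in DOX, 0 in the reported fit, was 1 with no count filter, 1 with DESeq2 (both Ugt1a5) and 2 with the replicate block, and 0 were called lower under any of the alternatives run. Over the whole table, 3 of 13725 tested genes were called higher and 1 lower. The higher count was 45 of 20914 with no filter, 128 of 14828 (0.863%) with DESeq2, 1 of 13725 with limma-voom and 17 of 13725 with the replicate block. The lower count was 2 with library size only, 16 with no filter, 48 with DESeq2 and 4 with the replicate block, and 0 to 1 when single libraries were left out.

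The median log2 fold change over all conjugation genes, 0.10, ranged from 0.0196 to 0.39 over the fits without 1 library, with 0.39 reached without DOX replicate 1. The UGT1 median, 0.24, was 0.10 with library size only, 0.0932 with limma on log2 of FPKM plus 0.1, and 0.11 to 0.51 without single libraries. Its values without DOX replicate 2, PBS replicate 2 and PBS replicate 3 (0.51, 0.49 and 0.49) are over 7 genes instead of 6. In those fits Ugt1a10, a gene of few counts, passed the filter. The GSTP median, 0.02, was −0.14 with limma on log2 of FPKM plus 0.1 and −0.10 to 0.21 without single libraries. Without single libraries, the UGT2 median (0.37) was 0.19 to 0.57, the GSTA median (0.50) 0.13 to 0.68, the GSTT median (0.29) −0.12 to 0.55, and the SULT median (−0.07) −0.32 to 0.14, each lowest without DOX replicate 3. Genes without overlap numbered 6 higher and 0 lower. They were 3 and 1 with library size only, 3 and 1 in the deposited FPKM, and 6 to 13 and 0 to 2 without single libraries. Over all tested genes the shares without single libraries were 11.3% to 13.3% higher and 12.7% to 15.7% lower. Such shares were not computed for library size only or FPKM. The log2 ratio of the UGT1 sums was 0.33 in FPKM and 0.49 in TMM-scaled CPM. Of the 28 genes described by the rule and tested, 13 kept their sign in every alternative that gave a value (16, or 15 for Gsta5, Sult2a8 and Sult2b1), and 15 changed it in at least 1. The causes of these shifts were not tested.

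The replicate numbers occur in both groups of labels. The deviations of same-numbered libraries correlated at 0.225, 0.161 and 0.0193 for replicates 1, 2 and 3. Those of unlike number correlated at −0.214 to 0.0661. Not every library correlated best with its own number. Deviations are centred within each group of 3, so these values depend on each other and cannot show pairing. With the replicate block, 2 of the 37 tested conjugation genes were called, Ugt1a5 (edgeR adjusted p = 0.0108) and Ugt2b1 (edgeR adjusted p = 0.0232). That fit called 21 of all 13725 tested genes.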
